A study of Mus musculus with 6 samples.

Results

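The expression of 8 genes of the chemokine system was followed in mouse CD4+CD25- T cells: the ligands Xcl1, Ccl1, Ccl3, Ccl4, Ccl9 and Cxcl10 and the receptors Ccr8 and Cxcr6. All probe sets annotated to these 8 genes were taken, which gave 10 of the 28898 probe sets with 1 gene symbol and 8 of the 17097 genes measured. The genes were chosen by their intensities and changes on these same arrays, in all 3 comparisons below, so their levels and changes are given as a description, without a p-value.

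The 6 one-colour expression arrays, 2 for each of 3 plate coatings, came from T cells of female C57BL/6 mice depleted of CD25+ cells and selected for CD4. The anti-CD3 wells were coated with anti-CD3 at 2 µg/ml, which stimulates through the T cell receptor, plus IgG as a control protein. The B7-2 wells carried anti-CD3 at 2 µg/ml, the costimulatory ligand B7-2 as an Fc fusion at 3 µg/ml and control IgG. The BTNL2 wells carried anti-CD3 at 2 µg/ml, B7-2.Fc at 3 µg/ml and BTNL2.Fc, an Fc fusion of a butyrophilin-like protein, at 11 µg/ml. All 3 groups shared TGF-beta at 0.36 ng/ml, IL-2 at 10 ng/ml, equal numbers of cells a well and 4 days of culture, and 50 ng of RNA was amplified for each array. The comparisons ask what B7-2 adds to anti-CD3 and what BTNL2 adds to both. The labels give spleen in 1 place and spleen with lymph nodes in another, and the age of the mice is not given in the sources used here. Nothing in the labels says that duplicate wells came from separate animals, so every p-value below measures only the spread between these wells and their arrays.

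Chemokines are small secreted proteins that bind G protein-coupled receptors and direct the movement of leukocytes. Xcl1 (lymphotactin) binds Xcr1, a receptor of cross-presenting dendritic cells, and Ccl1 binds Ccr8. Ccl3 and Ccl4 are among the macrophage inflammatory proteins. Ccl9 binds Ccr1, and Cxcl10 binds Cxcr3. Cxcr6 is the receptor of Cxcl16, and both Ccr8 and Cxcr6 are carried by subsets of activated T cells. Activated T cells are a known source of Xcl1, Ccl1, Ccl3 and Ccl4, while Cxcl10 is best known as a product of cells exposed to interferon.

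Promoters of Xcl1, Ccl1 and Cxcl10 are shown because Xcl1 and Ccl1 had the largest differences between coatings among the 8 genes and Cxcl10 is the member with the most motif matches. Each sequence is the 250 bases before the RefSeq start of the gene on GRCm38.p6, all on the minus strand, 5′ to 3′, at chr1:164935523-164935772 for Xcl1, chr11:82179813-82180062 for Ccl1 and chr5:92348890-92349139 for Cxcl10. Capitals mark motif matches.
Xcl1: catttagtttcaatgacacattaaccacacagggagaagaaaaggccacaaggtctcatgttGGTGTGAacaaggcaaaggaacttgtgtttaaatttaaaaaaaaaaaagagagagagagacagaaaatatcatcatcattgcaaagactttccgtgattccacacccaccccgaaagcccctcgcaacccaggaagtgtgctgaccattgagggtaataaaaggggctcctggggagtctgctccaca
Ccl1: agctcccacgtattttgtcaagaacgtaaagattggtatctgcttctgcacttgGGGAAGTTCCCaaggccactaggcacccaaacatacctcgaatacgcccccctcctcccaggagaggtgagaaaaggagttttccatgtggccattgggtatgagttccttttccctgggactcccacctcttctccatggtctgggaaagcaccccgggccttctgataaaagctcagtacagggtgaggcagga
Cxcl10: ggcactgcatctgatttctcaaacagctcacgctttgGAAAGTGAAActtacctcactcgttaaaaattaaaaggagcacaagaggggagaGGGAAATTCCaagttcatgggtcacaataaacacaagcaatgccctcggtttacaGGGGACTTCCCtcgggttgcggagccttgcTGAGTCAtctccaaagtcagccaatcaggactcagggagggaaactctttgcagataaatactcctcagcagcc
The 4 motifs were searched on both strands and were chosen after these promoters had been read. The T-box core GGTGTGA, the DNA element of T-bet and Eomes, was found in Xcl1, and 3.33% of the 32851 RefSeq promoter windows of the same length hold it. The NF-kB consensus was found in Ccl1, Ccl9 and Cxcl10 and in 7.25% of all windows. In Ccl1 a match on each strand, and in Cxcl10 the pair of matches nearest the start, both on the strand shown, overlap by all but their outer bases, and each pair is 1 marked stretch. The interferon-stimulated element (GAAA, any 2 bases, GAAA) was found in Cxcl10 and in 2.98% of windows, and the AP-1 letters TGANTCA in Ccl9 and Cxcl10 and in 6.75% of windows. A match is a run of letters, and no binding was measured. The RefSeq table gave a promoter for 7 of the 8 genes; Ccl4 is named only.

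Values are intensities on a linear scale, normalised between arrays by RMA, so a level can be compared between coatings for 1 gene and not between genes. A log2 change is the difference of group means of log2 intensity, with its standard error from a limma fit of all 6 arrays, n = 2 arrays a group. In bulk RNA, fewer cells of a type and less RNA per cell cannot be told apart.

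Xcl1 was near background without BTNL2 and bright with it. It read 10.4 and 11.4 on the anti-CD3 arrays, 7.59 and 6.01 on the B7-2 arrays, and 1782 and 1363 on the BTNL2 arrays. Nonspecific control probe sets reached at most 5.02 to 5.99 on the 6 arrays, so the B7-2 readings lay just above them. Against B7-2 wells the log2 change in BTNL2 wells was 7.85 ± 0.16, a 231-fold difference on this scale that rests on those dim B7-2 readings. The order was BTNL2, anti-CD3, B7-2 with no overlap between groups, and the B7-2 arrays were 1.61-fold below anti-CD3 (log2 change -0.69 ± 0.16).

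Ccl1, the ligand of Ccr8, had much the same shape. Its intensity was 19.0 and 29.9 with anti-CD3, 26.7 and 27.1 with B7-2 added, and 2886 and 2261 with BTNL2. The anti-CD3 and B7-2 arrays overlapped (log2 change 0.17 ± 0.21), while both BTNL2 arrays lay far above them. The BTNL2 wells were 95.1-fold above B7-2 wells, a log2 change of 6.57 ± 0.21, and 107-fold above anti-CD3 wells. The wide gap between the anti-CD3 duplicates sets the larger error of this gene.

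Ccl3, macrophage inflammatory protein 1-alpha, was higher at each step of the coatings. It read 58.6 and 57.1 with anti-CD3, 457 and 555 with B7-2, and 1913 and 1719 with BTNL2, and no group overlapped another. B7-2 wells were 8.7-fold above anti-CD3 wells (log2 change 3.12 ± 0.12), and BTNL2 wells were a further 3.6-fold above B7-2 wells (1.85 ± 0.12). Ccl3 therefore had its larger step with B7-2, where Xcl1 was lower and Ccl1 overlapped.

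Ccl4, macrophage inflammatory protein 1-beta, shared the first step of Ccl3 and not the second. Its readings were 45.8 and 60.1 with anti-CD3, 179 and 182 with B7-2, and 118 and 123 with BTNL2. B7-2 wells were 3.44-fold above anti-CD3 wells, with a log2 change of 1.78 ± 0.13. BTNL2 wells were 1.5-fold below B7-2 wells (-0.59 ± 0.13) and still 2.29-fold above anti-CD3 wells. Among the 6 ligands Ccl4 was the only one whose BTNL2 arrays both lay below its B7-2 arrays.

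Ccl9, a ligand of Ccr1, was measured by 2 probe sets that differed in brightness and in the first step. The brighter read 79.1 and 98.0 with anti-CD3, 131 and 127 with B7-2, and 353 and 336 with BTNL2, with no overlap. The other read 7.98 and 8.58, then 8.35 and 7.91, then 14.0 and 13.5, close to background throughout. In BTNL2 against B7-2 wells both were higher, by 2.68-fold (log2 change 1.42 ± 0.12) for the brighter and 1.69-fold (0.75 ± 0.10) for the dimmer. In B7-2 against anti-CD3 wells the brighter had a log2 change of 0.55 ± 0.12, while the dimmer overlapped at -0.026 ± 0.10, so the direction of that step rests on 1 probe set.

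Cxcl10 was low without BTNL2 and higher with it. It read 23.0 and 18.5 with anti-CD3, 15.3 and 14.6 with B7-2, and 64.3 and 53.0 with BTNL2. The groups did not overlap and stood in the same order as for Xcl1, with B7-2 lowest and BTNL2 highest. BTNL2 wells were 3.91-fold above B7-2 wells (log2 change 1.97 ± 0.14), and B7-2 wells were 1.38-fold below anti-CD3 wells (-0.47 ± 0.14).

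**Figure D1:**
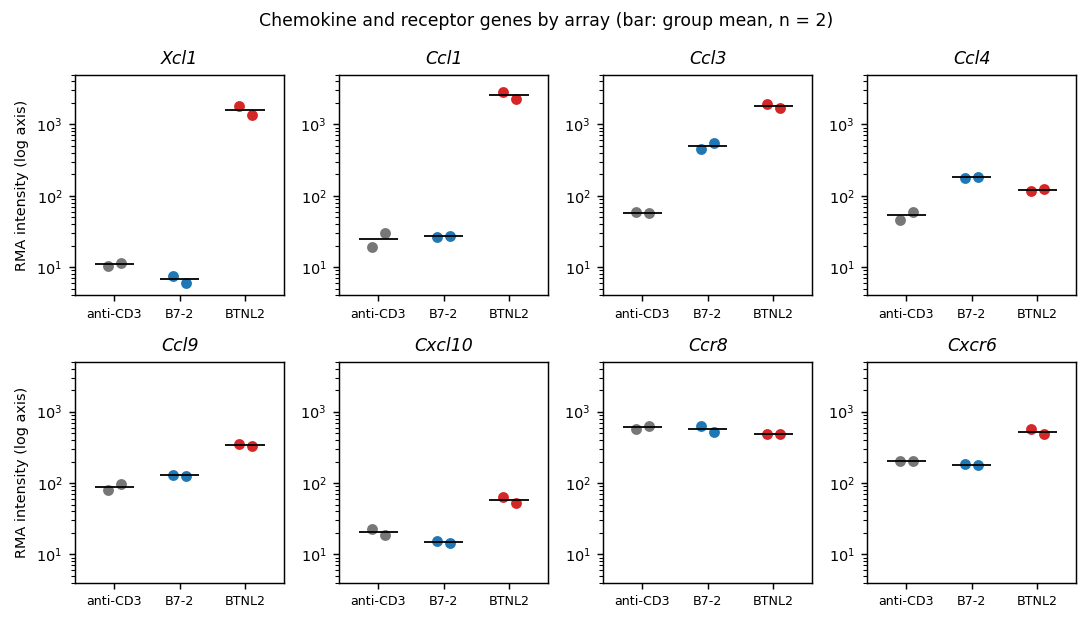
Intensity of each of the 8 genes on each of the 6 arrays, with a logarithmic vertical axis; points are arrays and colours are coatings. Xcl1 and Ccl1 separate the BTNL2 arrays from the other 4 by the widest margin, and Ccr8 shows the narrowest spread.

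The receptor Ccr8 did not follow its ligand Ccl1. Its intensity was 578 and 635 with anti-CD3, 623 and 526 with B7-2, and 485 and 485 with BTNL2. The anti-CD3 and B7-2 arrays overlapped (log2 change -0.08 ± 0.11), and both BTNL2 arrays lay below all others. The gap was small: BTNL2 wells were 1.18-fold below B7-2 wells (-0.24 ± 0.11) and 1.25-fold below anti-CD3 wells (-0.32 ± 0.11). Without the first B7-2 array the difference from B7-2 wells was -0.12, and without the second it was -0.36.

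Cxcr6, a chemokine receptor of effector and tissue-resident T cells, was higher in BTNL2 wells by both of its probe sets. The brighter read 206 and 200.5 with anti-CD3, 182 and 176 with B7-2, and 565 and 480.1 with BTNL2. The other read 34.1 and 42.7, then 33.2 and 34.8, then 130.4 and 122. BTNL2 wells were 2.91-fold above B7-2 wells by the first (log2 change 1.54 ± 0.10) and 3.71-fold by the second (1.89 ± 0.13). B7-2 against anti-CD3 wells gave -0.18 ± 0.10 by the first, without overlap, and -0.17 ± 0.13 by the second, with overlap.

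Across the 8 genes, both BTNL2 arrays lay above both B7-2 arrays for 6 and below them for 2, and no gene overlapped. Over all 17097 genes the same was so for 27.9% above and 31% below, and since this contrast helped choose the 8 genes nothing is read from the count. The median log2 change of the 8 was 1.69 in this comparison, against -0.011 over all genes. In B7-2 against anti-CD3 wells 3 of the 8 lay above (Ccl3, Ccl4 and Ccl9), 3 below (Xcl1, Cxcl10 and Cxcr6) and 2 overlapped, with 29.3% and 30.8% of all genes above and below and a median log2 change of 0.05. In BTNL2 against anti-CD3 wells 7 lay above and Ccr8 lay below, with 30.8% and 32.2% of all genes and a median of 1.73. The comparisons share arrays, the B7-2 wells entering the first 2 and the anti-CD3 wells the last 2, so they are not independent of each other. With 2 arrays against 2, an exact two-sided permutation test of a single gene cannot go below p = 0.333.

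**Figure D2:**
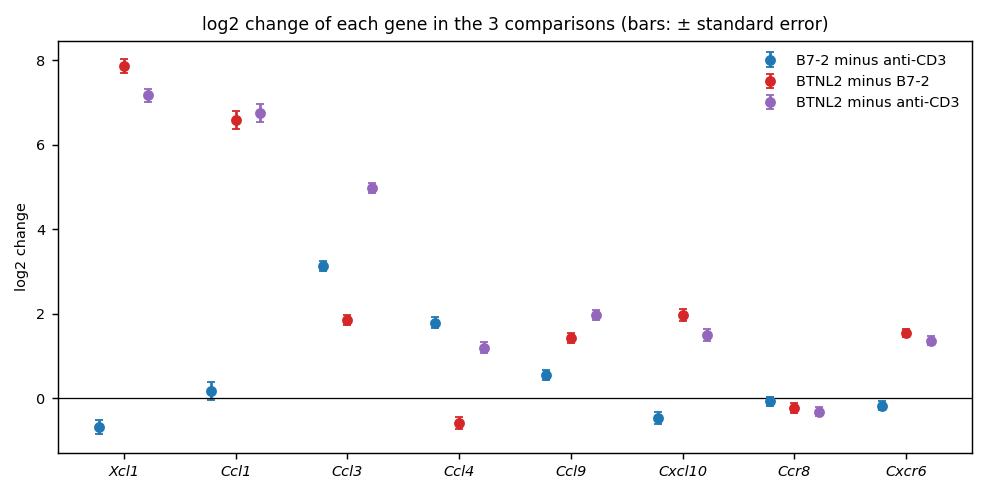
log2 change of the 8 genes in each of the 3 comparisons, with bars of 1 standard error from the limma fit (n = 2 arrays a group). The vertical axis is the log2 change; Xcl1 and Ccl1 stand at 7.85 and 6.57 for BTNL2 minus B7-2, Ccl3 has its largest single step, 3.12, with B7-2, and Ccr8 stays between -0.32 and -0.08.

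The genes with the most similar pattern were found by the root mean square difference of log2 intensity, each gene centred on its own mean over the 6 arrays. For Xcl1 they were Ccl1 (0.56), Eomes (0.78) and Trgv1 (1.03), and for Ccl1 they were Eomes (0.45), Xcl1 (0.56) and Trgv1 (0.73). Eomes encodes a T-box transcription factor of CD8 T cells and NK cells, and Trgv1 a variable segment of the T cell receptor gamma chain. Ccl3 lay nearest to Lad1 (0.32), Tnfsf11 (0.56) and Ifitm3 (0.62), and Ccl4 to Dus4l (0.14), Gart (0.16) and Lif (0.17). Tnfsf11 encodes the cytokine RANKL and Lif another secreted cytokine. Ccl9 lay nearest to Rgs16 (0.07), Kcnk6 (0.13) and Ccl17 (0.13), and Cxcl10 to Ubd (0.05), Rragd (0.10) and Ehd3 (0.11). Ccr8 lay nearest to Inip (0.03), Ap2s1 (0.03) and Irx4 (0.04), and Cxcr6 to Cd40 (0.08), Atp1b1 (0.11) and Klrc1 (0.11). Irx4 was at background, with mean intensities of 5.9 with anti-CD3, 5.6 with B7-2 and 4.9 with BTNL2. The distances are smaller for genes that varied less, so they are not compared between members.

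Genes beside the members on the chromosome changed with them in some places and not in others. In gene order on chromosome 11, Ccl1 follows Ccl2, Ccl7, Ccl11, Ccl12 and Ccl8, monocyte and eosinophil attractants, and none of these 5 was called by limma in BTNL2 against B7-2 wells (smallest unadjusted p = 0.154), with log2 changes from -0.027 to 0.19 beside 6.57 for Ccl1. Further along the same chromosome lie Ccl5, Ccl9, Ccl6, Ccl3 and Ccl4, with log2 changes of 0.89, 1.42, 1.07, 1.85 and -0.59 in that comparison. Ccl6 was not called there (limma adjusted p = 0.0553) and read 43.7 and 20.1 on the BTNL2 arrays. With B7-2 against anti-CD3 the same 5 genes gave -0.50, 0.55, -0.02, 3.12 and 1.78, so the Ccl3 and Ccl4 end of the row had the larger values. Art3 (5.08 to 7.92 in intensity, close to background) and Nup54, on either side of Cxcl10, had log2 changes of 0.05 and -0.09 in BTNL2 against B7-2 wells. Cxcl9, next to Art3 and likewise a ligand of Cxcr3, had a log2 change of 0.04 there (adjusted p = 0.873). Beside Cxcr6, Fyco1, an adaptor of autophagosome transport, fell by 0.53 on the log2 scale (adjusted p = 0.00636) and Xcr1 stood at 0.02. Beside Ccr8, at -0.24 in the same comparison, Cx3cr1 (8.64 to 13.0 in intensity) and Slc25a38 stood at 0.21 and 0.04, neither called. Dpt and Tbx19, on either side of Xcl1, stood at -0.09 and 0.11, with intensities of 4.14 to 5.24 and 5.92 to 9.12, close to background. Atp1b1, a sodium pump subunit next to Dpt, rose by 1.499 (adjusted p = 0.000536).

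**Figure D3:**
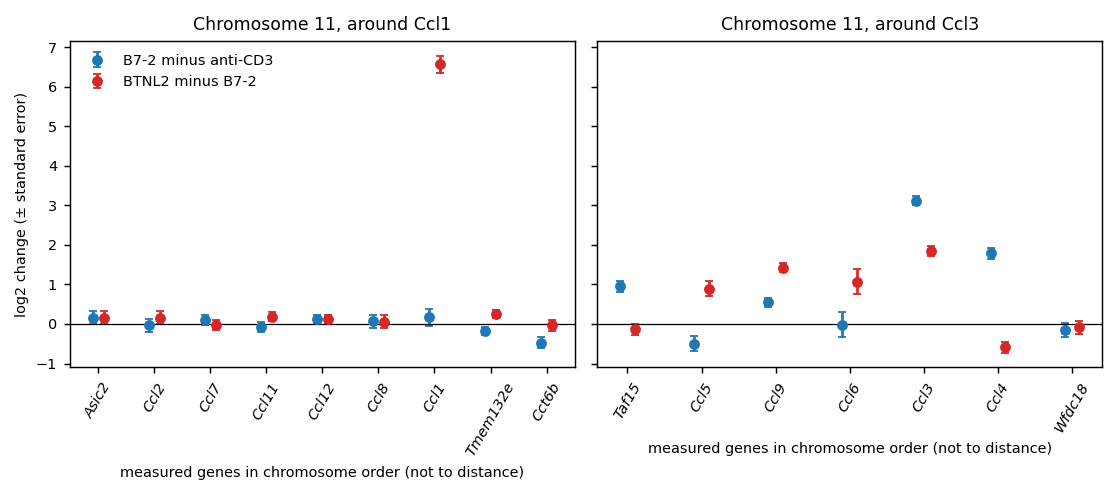
log2 change for BTNL2 minus B7-2 and for B7-2 minus anti-CD3 of genes in their order along chromosome 11 around Ccl1 and around Ccl3 and Ccl4; distances are not drawn. Ccl1 stands at 6.57 for BTNL2 minus B7-2 beside Ccl2 to Ccl8 between -0.027 and 0.19, while Ccl9, Ccl3 and Ccl5 all lie above 0 and Ccl4 at -0.59. Ccl2 to Ccl8 read 4.08 to 13.8 in intensity, close to background.

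Binding partners of the members were measured in the same T cells. Cxcr3, the receptor of Cxcl10 on effector T cells, read 663 and 650 with anti-CD3, 501 and 494 with B7-2, and 635 and 634 with BTNL2. It fell by 0.40 ± 0.08 with B7-2 (adjusted p = 0.0128) and rose by 0.35 ± 0.08 with BTNL2 over B7-2 (adjusted p = 0.0245), 1.32-fold and 1.27-fold. Both calls are fragile: the first was lost without any 1 of the 4 arrays of its groups (adjusted p up to 0.0735) and the second likewise (up to 0.102). Xcr1, the receptor of Xcl1, read 8.09 to 9.94 and Ccr1, a receptor of Ccl3 and Ccl9, 6.71 to 9.73, both close to the nonspecific controls and not called in any comparison. With the mean of its probe sets Ccr1 was called in 2 comparisons, at 0.36 for B7-2 minus anti-CD3 and -0.58 for BTNL2 minus B7-2. Cxcl16, the ligand of Cxcr6, read 16.8 to 24.5, and Ccl8, another ligand of Ccr8 in the mouse, 6.77 to 9.36. Cxcl9 and Cxcl11, the other ligands of Cxcr3, read 6.69 to 8.39 and 7.96 to 8.43. Ifng, whose protein induces Cxcl10 in many cells, rose by 2.26 ± 0.12 with B7-2 (adjusted p = 0.000166), where Cxcl10 was lower, and by 1.11 ± 0.12 with BTNL2 over B7-2 (adjusted p = 0.000837), where Cxcl10 was higher.

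Most other chemokine ligands were not called. Many of them read close to background on all arrays, for example Ccl7 (4.89 to 6.08), Cxcl2 (4.45 to 5.09) and Cxcl5 (3.26 to 4.48), which limits what could be called. Cxcl14, which was called, read 5.04 to 8.67. Of 29 measured, 2 rose and 2 fell with B7-2 over anti-CD3, against 24.5% of all genes called (11.2% up, 13.3% down), with a median log2 change of -0.0037 for the list and -0.0048 for all genes. Ccl22 and Ccl17, the Ccr4 ligands, rose by 1.20 ± 0.16 (adjusted p = 0.00205) and 0.67 ± 0.10 (adjusted p = 0.00366), 2.3-fold and 1.59-fold. Ccl27a and Cxcl14 fell by 0.62 and 0.51 (adjusted p = 0.0119 and 0.0291), and neither was called with the mean of the gene's probe sets, nor without the first anti-CD3 array (adjusted p = 0.065 and 0.158) or the first B7-2 array (adjusted p = 0.0582 and 0.138).

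With BTNL2 over B7-2, 4 of the 29 ligands rose and Ccl27a fell, against 20.4% of all genes called (9.52% up, 10.8% down), with a median of 0.08. Ccl17 read 330 and 284 with BTNL2 and 135 and 134 with B7-2, a rise of 1.19 ± 0.10 (adjusted p = 0.000306, 2.27-fold). Ccl27a, a skin-homing chemokine, fell by 1.11 (adjusted p = 0.00108, 2.16-fold), and by 0.51 with the mean of its probe sets. Ccl20, the ligand of Ccr6, rose by 1.26 ± 0.27 (adjusted p = 0.0162), with 39.1 and 20.3 on the BTNL2 arrays and 11.8 and 11.7 with B7-2, and the call was lost without either B7-2 array (adjusted p = 0.065 and 0.063). Ccl5 (RANTES) rose by 0.89 ± 0.19 (adjusted p = 0.0166) and was not called without the first B7-2 array (adjusted p = 0.0878). Over anti-CD3 alone, 3 ligands rose (Ccl17, Ccl22 and Ccl6) and 2 fell (Ccl27a and Cx3cl1, a call lost without either anti-CD3 array or the second BTNL2 array, with adjusted p up to 0.0698, and with the mean of its probe sets), against 30.4% of all genes called (14.2% up, 16.2% down). Without the first B7-2 array 2 ligands were called for BTNL2 over B7-2, and without the second anti-CD3 array 3 were called for BTNL2 over anti-CD3.

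Of 17 other chemokine receptors measured, Ccr6 rose and Ccr2, Cxcr3 and Ccr4 fell with B7-2 over anti-CD3, with a median of -0.09, against 24.5% of all genes called. Ccr2, a receptor of monocytes and memory T cells, fell by 0.91 ± 0.10 (adjusted p = 0.00109, 1.88-fold), from 82.2 and 89.3 to 43.9 and 47.5. It rose by 0.74 with BTNL2 over B7-2 (adjusted p = 0.00222, 1.67-fold), to 73.1 and 79.6, below its anti-CD3 readings. With the mean of its probe sets these changes were -0.47 and 0.47, both still called. Ccr6 rose by 0.99 ± 0.21 with B7-2 (adjusted p = 0.0137), read 63.9 and 39.6 there, and was not called without either anti-CD3 array (adjusted p up to 0.0746). Ccr4, the receptor of Ccl17 and Ccl22, fell in every comparison: by 0.57 with B7-2 (adjusted p = 0.0187), by a further 0.49 with BTNL2 (adjusted p = 0.0385) and by 1.06 over anti-CD3 (adjusted p = 0.000988). Each of its first 2 calls was lost when any of several single arrays was left out, with adjusted p up to 0.102 and 0.15. With BTNL2 over B7-2 the atypical receptor Ccrl2 rose as well (adjusted p = 0.0417), a call lost in 5 of 6 such fits. Over anti-CD3 alone the receptors called were Ccr4 and Cxcr5, both lower, and Cxcr5 was lost in 3 of 6 such fits. Single arrays set many of these calls: with B7-2 over anti-CD3, 1 receptor was called without either anti-CD3 array and 2 without either B7-2 array. With BTNL2 over B7-2, 2 were called without either anti-CD3 array, the first BTNL2 array or the second B7-2 array, and 1 when the first B7-2 array was left out. With BTNL2 over anti-CD3, 1 was called without either anti-CD3 array or the first BTNL2 array. The counts for BTNL2 over B7-2 and over anti-CD3 stood beside 20.4% and 30.4% of all genes called.

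**Figure D4:**
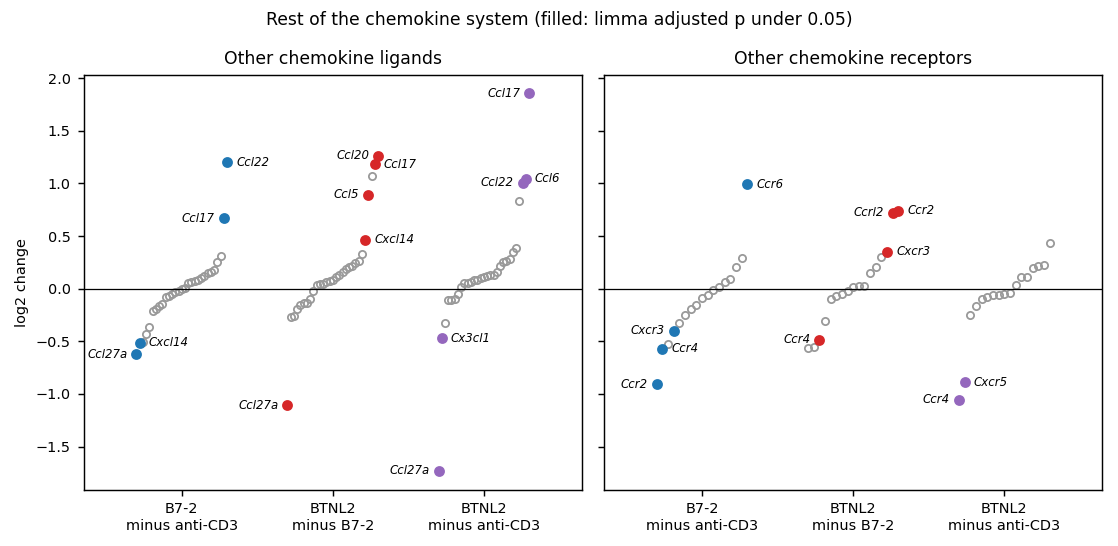
log2 change of the 29 other chemokine ligands and 17 other chemokine receptors in the 3 comparisons, 1 point per gene in order of change within a comparison, filled where limma's adjusted p was under 0.05. Filled points are few: 4, 5 and 5 ligands and 4, 4 and 2 receptors.

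Of 27 genes that carry or end chemokine receptor signals, 9 rose and 4 fell with BTNL2 over B7-2 (median 0.10), 2 rose and 6 fell with B7-2 over anti-CD3 (median -0.05), and 4 rose and 5 fell with BTNL2 over anti-CD3 (median 0.06). Over all genes 20.4%, 24.5% and 30.4% were called in these comparisons. Arrb1, the arrestin that uncouples G protein-coupled receptors, fell with each step, from 646 and 605 to 286 and 285 with B7-2 and to 57.9 and 68.9 with BTNL2. Its changes were -1.13 (adjusted p = 0.000734) and -2.18 (adjusted p = 3.61e-05), and BTNL2 wells were 9.9-fold below anti-CD3 wells. Regulators of G protein signalling moved in different directions with BTNL2 over B7-2. Rgs2 fell by 2.27 (adjusted p = 4.31e-05) and Rgs16 rose by 1.54 (adjusted p = 6.74e-05), which became -1.43 and 0.96 with the mean of probe sets, both still called. Rgs10 fell by 1.88 with B7-2 over anti-CD3 (adjusted p = 0.00018). The count for BTNL2 over B7-2 was 7 without the second B7-2 array and 8 without the first BTNL2 array.

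Of 28 transcription factors of effector T cells, 5 rose and 2 fell with B7-2 (median -0.09), 9 rose and 6 fell with BTNL2 over B7-2 (median 0.13), and as many of each with BTNL2 over anti-CD3 (median 0.18). The shares of all genes called were 24.5%, 20.4% and 30.4%. Eomes read 21.1 and 17.7 with anti-CD3, 20.0 and 16.3 with B7-2, and 1337 and 991 with BTNL2, a rise of 6.00 ± 0.18 (63.8-fold, adjusted p = 5.55e-06). Stat4, which carries interleukin-12 signals, fell by 0.74 with B7-2 (adjusted p = 0.00252) and rose by 1.23 with BTNL2 over B7-2 (adjusted p = 0.000262). Prdm1, the repressor Blimp-1, rose by 1.28 with B7-2 (adjusted p = 0.000445) and fell by 1.18 with BTNL2 (adjusted p = 0.000324). Foxp3, the factor of regulatory T cells, rose by 2.04 with BTNL2 over B7-2 (adjusted p = 6.59e-05). The count for B7-2 over anti-CD3 was 4 when the second anti-CD3 array or either B7-2 array was left out, 3 when the first anti-CD3 array was, and 12 when the variance prior followed intensity. For BTNL2 over anti-CD3 it was 7 without the first anti-CD3 array and 9 without the second.

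Markers of other cells that the selection could leave were read on the same arrays. The 9 CD8 T cell and NK cell markers summed to 655 and 702 with anti-CD3, 319 and 317 with B7-2, and 1778 and 1708 with BTNL2, the order seen for Xcl1, Cxcl10 and Cxcr6. Of the 9, 5 fell with B7-2, against 13.3% of all genes, and 6 rose with BTNL2 over B7-2, against 9.52%, with a median log2 change of 1.69 in the latter. Cd8a had the largest rise of the 9 with BTNL2 over B7-2, 8.48-fold. It read 302 and 321, then 119 and 107, then 987 and 924. Cd8b1, the other CD8 chain, read 68.2 and 64.3, then 41.8 and 30.7, then 86.4 and 91.9. It rose 2.49-fold with BTNL2 over B7-2 and was not called over anti-CD3 (1.35-fold, limma adjusted p = 0.0702). Cd160, Klrd1, Klrk1 and Klrc1 rose as well with BTNL2 over B7-2, by 6.44-fold, 5.67-fold, 5.22-fold and 3.22-fold. Klrb1c, Klra8 and Ncr1 were not called there. Ncr1, the defining NK marker, stayed between 4.75 and 6.62, close to the nonspecific controls. The part of CD8+ cells in the chemokine values was not tested. The 7 alpha-beta T cell markers measured summed to 17709 and 17303 with anti-CD3, 13509 and 13817 with B7-2, and 13111 and 13030 with BTNL2, with Cd4 at 1103 to 1705 and Cd3e at 2984 to 4133, as the label of CD4+ T cells says. Of the 7, 3 fell with B7-2, 2 with BTNL2 over B7-2 and 4 with BTNL2 over anti-CD3. Over all genes 13.3%, 10.8% and 16.2% were called lower in these comparisons. The 4 were Cd28, Cd5, Cd3g and Cd4 itself. With BTNL2 they were 2.67-fold, 2.02-fold, 1.63-fold and 1.44-fold lower than with anti-CD3 (limma adjusted p = 9.97e-05, 0.000213, 0.0019 and 0.00513). The 11 myeloid and dendritic cell markers summed to 155 to 250, with Itgam at 6.08 to 9.31. Cd68 was the only one of the 11 called, lower in each comparison, against 13.3%, 10.8% and 16.2% of all genes. The 7 B cell markers summed to 951 and 891, then 558 and 523, then 752 and 978. Of these, 4 fell with B7-2, against 13.3% of all genes. With BTNL2 over B7-2, 3 rose, against 9.52%. They were Ms4a1 (3.4-fold), Cd79b (1.88-fold) and Cd79a (1.59-fold), with limma adjusted p = 0.000283, 0.00137 and 0.0371. Ebf1, a factor of early B cells, fell 2.7-fold (adjusted p = 0.000414). The 8 markers of mast cells, basophils and eosinophils summed to 71.5 and 68.8, then 76.9 and 82.9, then 88.6 and 113. Siglecf was the only one called, higher with BTNL2 over anti-CD3 (2.33-fold, adjusted p = 0.00694), against 14.2% of all genes. Of the 6 gamma-delta T cell markers listed, Trdc, Trdv4, Tcrg-C1 and Trgv2 were not measured. Blk, which B cells also express, fell with B7-2 and rose with BTNL2 over B7-2 while Sox13 was not called. Trgv1, the gamma chain segment named above, was not on the list. Its mean intensity was 23.9 with anti-CD3, 15.6 with B7-2 and 774 with BTNL2, a log2 change of 5.63 over B7-2. The part of gamma-delta T cells in the chemokine values was not tested.

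Duplicate arrays correlated at r = 0.997 to 0.998 across genes and arrays of different groups at 0.974 to 0.987, a description, since genes are not independent replicates. The 3′ to 5′ signal ratio of Gapdh, a sign of RNA quality, was higher with BTNL2, at 1.40 and 1.43, than in the other wells, at 1.27 to 1.37. The same ratio of beta-actin was 1.79 and 1.72 with BTNL2, within the 1.67 to 1.92 of the other arrays. The part of RNA quality in the chemokine differences was not tested.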

How the data were processed

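For each of the 6 arrays the authors deposited linear probe set intensities that RMA had produced, per the submitters' processing notes; its version, its software, the chip definition and the genome build were not given in the sources used here. RMA makes array distributions alike and compresses differences of dim probe sets. Of 45037 non-control probe sets, 28898 had 1 gene symbol, 551 several and 15588 were unnamed here; 28689 symbols were matched by Entrez identifier to the GRCm38.p6 gene table, used for names and gene order. Promoters came from the RefSeq table of that assembly.

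Intensities were log2 transformed, each gene was represented by its probe set of highest mean, and 17097 genes entered a limma 3.58.1 model (R 4.3.3; lmFit, eBayes, all 6 arrays, 3 residual and 4.02 prior degrees of freedom, two-sided). Called genes had a Benjamini-Hochberg adjusted p under 0.05. The number of arrays limits the precision. The procedure was tested on simulated data.

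The 8 genes and all lists were chosen with earlier results of these data known. The rule for naming genes took the 8 members, their binding partners, Ifng and the 3 genes nearest each member. In each comparison it also took up to 4 called genes of each list, those of smallest p with arrays that did not overlap. Elmo1 (1.06), Pik3cg (-1.00), Jun (-1.38) and Ikzf2 (1.26) met it for B7-2 minus anti-CD3 and are not described above. Neither are Pik3r5 (1.20, BTNL2 minus B7-2), nor Ikzf2 (2.66) and Irf8 (0.97) for BTNL2 minus anti-CD3. These values are log2 changes. Others named above were chosen after their values were seen. Same-numbered wells showed no shared deviation across genes (correlations -0.0641, -0.0272 and -0.000967), and the main fit had no replicate block. These correlations cannot tell whether same-numbered wells shared an animal or a batch. Alternatives changed the normalization, the filter on dim genes (below 12.4 in intensity), the probe sets per gene, the variance prior, the arrays in the fit and the replicate block.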

Additional observations from a re-analysis of the deposited data

How the results depend on the processing

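The 3 comparisons are written a, b and c here for B7-2 minus anti-CD3, BTNL2 minus B7-2 and BTNL2 minus anti-CD3. Renormalizing, median centring, robust priors and the filter on dim genes moved no count past 1.5 times. They moved no log2 change of the 8 genes by more than 1 standard error of the main fit. The probe set rule mattered for the genes with 2 probe sets. Ccl9 was -0.026, 0.75 and 0.73 in a, b and c by its other probe set, a reversed sign in a, and 0.26, 1.09 and 1.35 by the mean of both. Cxcr6 was 1.89 and 1.73 in b and c by its other probe set and 1.72 and 1.54 by the mean. The mean of probe sets left 2 other ligands called in a, fitting only the groups compared left 2 other receptors called in b, and an intensity trend called 12 transcription factors in a. With the replicate block, for which no shared deviation was seen, 3765, 3160 and 4827 genes were called. No count of list members passed 1.5 times its value.

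Leaving out 1 array at a time, genes called ranged from 2454 to 4128 in a and 2142 to 3015 in b. In a the count was 2454 and 2647 without anti-CD3 replicates 1 and 2 and 2722 and 2687 without B7-2 replicates 1 and 2; in b it was 2181 and 2313 without B7-2 replicates 1 and 2 and 2142 without BTNL2 replicate 1. Other ligands called ranged from 2 to 6, 2 to 5 and 3 to 6 in a, b and c, other receptors from 1 to 5, 1 to 3 and 1 to 3, signalling genes from 7 to 12 in b, and transcription factors from 3 to 10 in a, 11 to 15 in b and 7 to 15 in c. The log2 changes in a, b and c ranged as follows. Xcl1 ran from -0.86 to -0.52, 7.66 to 8.04 and 6.97 to 7.35. Ccl1 ran from -0.15 to 0.50, 6.39 to 6.75 and 6.42 to 7.07. Ccl3 ran from 2.98 to 3.26, 1.71 to 1.99 and 4.89 to 5.05. Ccl4 ran from 1.59 to 1.98, -0.62 to -0.56 and 1.00 to 1.39. Ccl9 ran from 0.39 to 0.70, 1.38 to 1.46 and 1.81 to 2.12. Cxcl10 ran from -0.62 to -0.31, 1.83 to 2.11 and 1.35 to 1.66. Ccr8 ran from -0.20 to 0.042, -0.36 to -0.12 and -0.39 to -0.25. Cxcr6 ran from -0.20 to -0.16, 1.42 to 1.66 and 1.24 to 1.48. Signal close to background limits the precision of the Xcl1 readings outside the BTNL2 wells and of the second Ccl9 probe set.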
